A study of Mus musculus with 4 samples.

Results

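A set of 10 genes that shape the mitochondrial network was followed in mouse gastrocnemius, the large calf muscle. Control mice were compared with mice in which Fundc1 was knocked out in muscle. They were chosen by name as genes of mitochondrial fusion, fission and cristae: Mfn1, Mfn2, Oma1, Fis1, Mff, Mief1, Mief2, Mtfp1, Immt and Chchd3. Of these 10 names, 9 had a row of their own among the 25833 rows of the deposited gene table, and Mtfp1 appeared only in 1 row joined with its neighbour Sec14l2. All 10 rows were among the 14134 that the authors tested. The 2 groups were wild-type control mice (WT) and mice with a knockout of Fundc1 restricted to muscle (Fundc1-mKO, mKO below), both C57BL/6J and 8 weeks old, with 2 libraries from each group that the labels call biological replicates. The labels name neither the Cre driver nor the removed exon, nor the alleles that the controls carry. Each group has a single FPKM per gene, which is the number of fragments scaled to transcript length and to library size, so levels can be set side by side between genes. The authors' interval around each FPKM is the only error at hand. No value per animal was used, the spread between animals could not be measured, and the depth of the libraries is unknown.

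Mitochondria continually join and divide. Mitofusins on the outer membrane join neighbouring organelles. Division is carried out by the dynamin-related GTPase DRP1, encoded by Dnm1l, which docks on adaptor proteins of the outer membrane. Inside, the MICOS complex holds the necks of the cristae, the inner membrane folds that carry the respiratory chain. FUNDC1, an outer membrane receptor for mitophagy, is known from cultured cells to bind DRP1. The comparison asks here whether the transcripts of this machinery differ in muscle with Fundc1 knocked out.

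None of the 10 genes had a q under 0.05 for mKO against WT in the authors' deposited table, a threshold that 3.17% of all tested rows passed, so that a count of 0 among 10 genes is near the background. There was also none at q under 0.1 (4.92% of rows) and none when the authors' statistic was read against a normal distribution and adjusted over all rows (0.198%). At shares this low, 0 among 10 genes says little. For 9 of them the mKO level lay within 5% of the WT level, from 4.71% lower for Oma1 to 2.09% higher for Chchd3. Mff stood apart from the other 9 with a level 13.2% higher in mKO. The authors' intervals of WT and mKO overlapped for all 10 genes, while they lay apart in 0.715% of all tested rows. The targeted gene itself was lower in mKO: Fundc1 was at 20.1 FPKM in WT (authors' interval 16.3 to 23.8) and at 4.23 in mKO (3.15 to 5.31), with q = 0.00338 in the authors' deposited table. It was 78.9% lower but not absent, and the source of the remaining transcript was not tested.

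**Figure D1:**
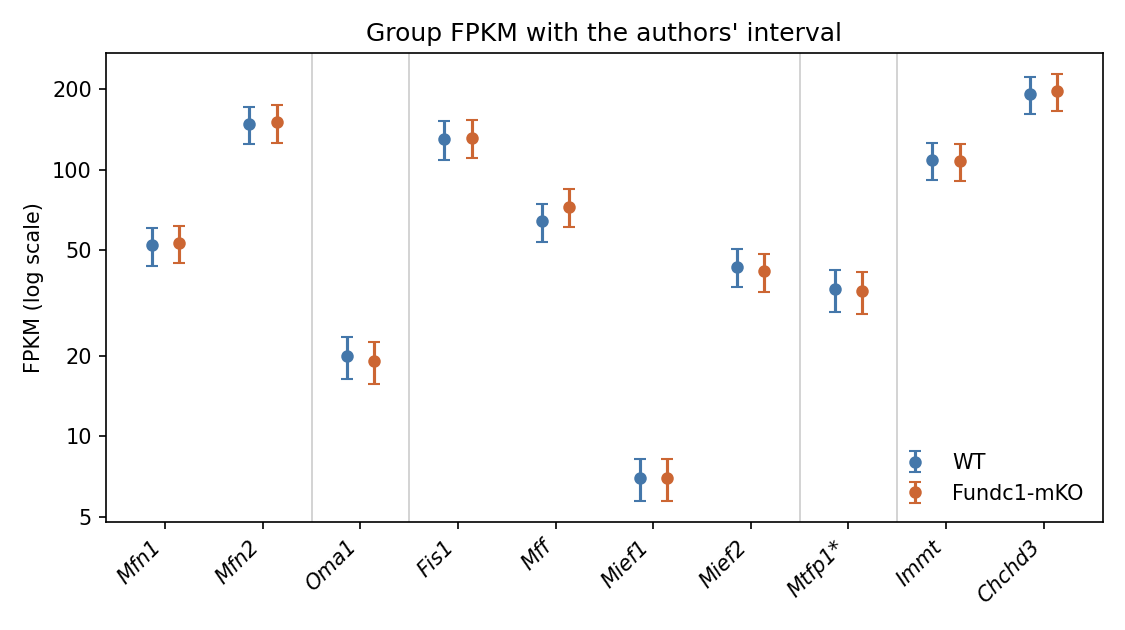
FPKM (log scale) of each gene in WT (blue) and Fundc1-mKO (orange), 1 value per group, with bars for the authors' interval; grey lines separate outer membrane fusion, the protease Oma1, outer membrane fission, inner membrane fission and cristae genes, and the asterisk marks the row that Mtfp1 shares with Sec14l2. The levels run from 6.99 FPKM for Mief1 to 193 for Chchd3 in WT, and every pair of bars overlaps.

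The 2 genes of outer membrane fusion were at nearly equal levels in both groups. Mfn2 encodes mitofusin 2, which joins outer membranes and also tethers mitochondria to the endoplasmic reticulum. Its level was 148 FPKM in WT (interval 125 to 172) and 151 in mKO (126 to 175). Mfn1, the other mitofusin, was at 52.2 FPKM in WT (43.7 to 60.6) and 53.1 in mKO (44.5 to 61.7). Both mitofusins were thus a little higher in mKO, by 1.47% for Mfn2 and 1.76% for Mfn1, well inside bounds that lie 15.97% to 16.2% to either side of each FPKM. On the log2 scale mKO over WT was 0.02 for Mfn2 and 0.03 for Mfn1, each with an SE of 0.16 that the bounds imply; the authors' deposited table gives q of 0.979 and 0.975. Mfn2 was the more abundant mitofusin transcript, at 2.84 times the level of Mfn1 in WT and 2.83 times in mKO. The intervals of the 2 genes lay apart within each group. The log2 change of this ratio from WT to mKO was -0.0041, with bounds of 2 SE at -0.47 and 0.46.

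Oma1 encodes a protease of the inner membrane that is activated when mitochondria are stressed or lose their membrane potential. Its level was 20.1 FPKM in WT (16.5 to 23.6) and 19.1 in mKO (15.7 to 22.6). The log2 ratio of -0.07 (SE 0.18) was the lowest among the 10 genes, and q was 0.886 in the authors' deposited table. Bounds of 2 SE around it allow a level in mKO from 26.1% lower to 22.9% higher.

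Among the adaptors that recruit DRP1, Mff had the widest difference between groups. MFF, the mitochondrial fission factor, is an outer membrane anchor for DRP1. Mff was at 64.2 FPKM in WT (53.6 to 74.7) and 72.6 in mKO (60.8 to 84.4). The mKO value lay inside the WT interval, and the WT value inside the mKO interval. The log2 ratio was 0.18 (SE 0.17), which corresponds to a 1.13-fold level with bounds of 2 SE from 0.898-fold to 1.43-fold. In the authors' deposited table it had an unadjusted p of 0.0281 and q = 0.268. It alone of the 10 had a p under 0.05 before adjustment, a threshold that 13.7% of all tested rows passed. The authors' p for Mff is smaller than their statistic of 1.07 gives under a normal distribution, which is 0.284. That gap runs through the authors' deposited table: over its 480 rows whose p lay from 0.02 to 0.04, the absolute statistic had a median of 1.10, and a normal distribution puts 2.17 at a p of 0.03.

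The other outer membrane adaptors differed less. Fis1, which encodes a small tail-anchored fission protein, was at 131 FPKM in WT (109 to 152) and 132 in mKO (110 to 154). Mief2, which encodes the DRP1 receptor MiD49, was at 43.3 FPKM in WT (36.3 to 50.4) and 41.5 in mKO (34.8 to 48.3). Mief1, which encodes its relative MiD51, was the least abundant of the 10 at 6.99 FPKM in WT (5.74 to 8.24) and 6.97 in mKO (5.73 to 8.22). Fis1 was thus 0.972% higher in mKO, Mief2 4.12% lower and Mief1 0.257% lower, with q of 0.991, 0.890 and 0.998 in the authors' deposited table. Of the 2 MiD genes, Mief2 was the dominant transcript in this muscle, at 6.20 times the level of Mief1 in WT and 5.96 times in mKO. The level of Fis1 was 2.04 times that of Mff in WT and 1.82 times in mKO. That ratio changed by -0.16 on the log2 scale, with bounds of 2 SE from -0.64 to 0.31 that include 0.

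Mtfp1 encodes an inner membrane protein that takes part in fission. Its only row combined it with Sec14l2, which encodes a lipid-binding protein and lies next to it on the same strand, so the level cannot be divided between the genes. The joint row was at 35.6 FPKM in WT (29.2 to 42.0) and 35.1 in mKO (28.8 to 41.4). The log2 ratio was -0.02 (SE 0.18) with q = 0.982 in the authors' deposited table. A change in one gene could be masked by the other in such a row.

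The cristae genes were among the most abundant. Immt encodes MIC60, the central subunit of MICOS, and Chchd3 encodes MIC19, its partner on the side of the intermembrane space. Immt was at 109 FPKM in WT (91.7 to 126) and 108 in mKO (90.5 to 125). Chchd3 was at 193 FPKM in WT (162 to 223) and 197 in mKO (166 to 228). Immt was 1.30% lower and Chchd3 2.09% higher in mKO, with log2 ratios of -0.02 and 0.03, each with an SE of 0.16. Their q was 0.984 and 0.971 in the authors' deposited table. Chchd3 stood at 1.77 times the level of Immt in WT and 1.83 times in mKO, and the log2 change of the ratio was 0.05 with bounds of 2 SE from -0.41 to 0.51.

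**Figure D2:**
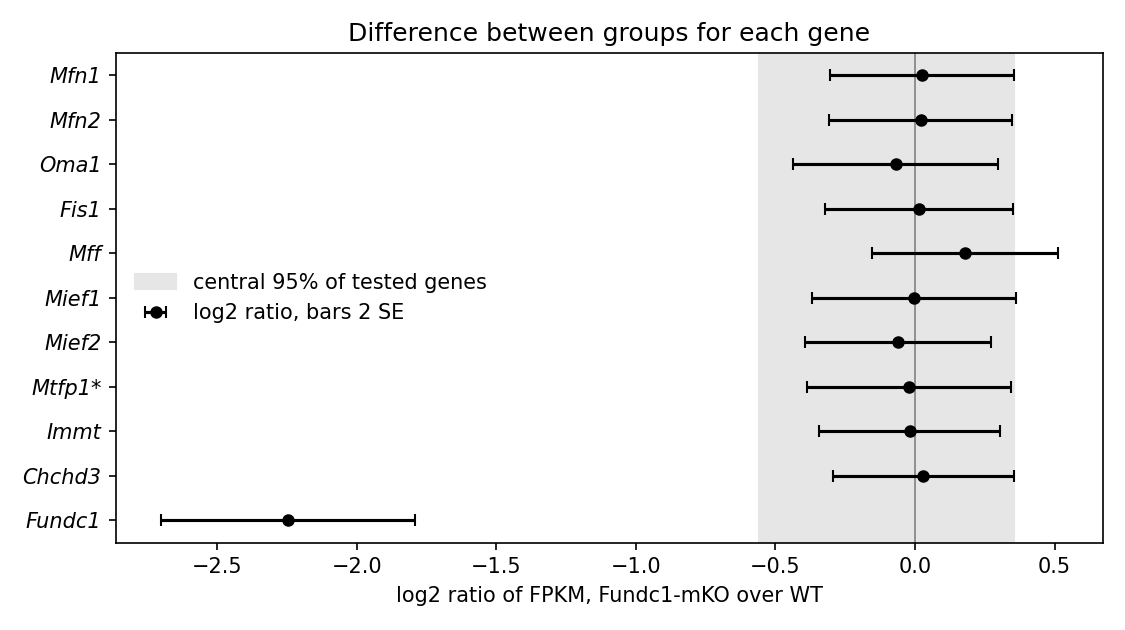
Log2 ratio of FPKM, mKO over WT, for each gene and for Fundc1, with bars of 2 SE derived from the authors' intervals; the grey band spans the central 95% of all tested genes (-0.56 to 0.36), and the asterisk marks the row shared with Sec14l2. All 10 bars cross 0, with Mff highest at 0.18, while Fundc1 lies at -2.25.

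The order of the 10 levels was the same in both groups: Chchd3, Mfn2, Fis1, Immt, Mff, Mfn1, Mief2, Mtfp1 with Sec14l2, Oma1 and Mief1. Within that order the intervals of neighbours overlapped from Chchd3 down to Immt and again from Mff down to Mtfp1. They lay apart between Immt and Mff, between Mtfp1 and Oma1, and between Oma1 and Mief1, in WT and in mKO alike. By neighbours alone, 4 genes stood above 100 FPKM, 4 in the middle, and Oma1 and Mief1 below. These are not sets of equal level, since genes further apart in rank could have separate intervals. In WT, for example, the interval of Chchd3 began at 162 and that of Immt ended at 126. Against the mean levels of 12490 tested genes, Chchd3 ranked at the 96.5th percentile and Mief1 at the 54.8th.

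As a group the 10 genes lay close to 0. In mKO 5 were higher and 5 lower, or 8 and 2 when both groups were scaled to equal medians, since Mief1, Mtfp1 and Immt then changed sign. Their median log2 ratio was 0.0051, beside -0.02 over 12475 tested genes with a value above 0 in both groups. Of those tested genes, 42.6% were higher in mKO before any scaling to equal medians. The median size of the log2 ratio regardless of sign was 0.02 over the 10 genes. Tested genes of the same range of mean FPKM (6.98 to 195) had a median size of 0.07 over 5212 genes, and 8 of the 10 lay under it. Mff lay at the 89.5th percentile of those genes by size. The choice of the 10 was made with earlier results of these data known, so these counts describe the genes and test nothing.

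**Figure D3:**
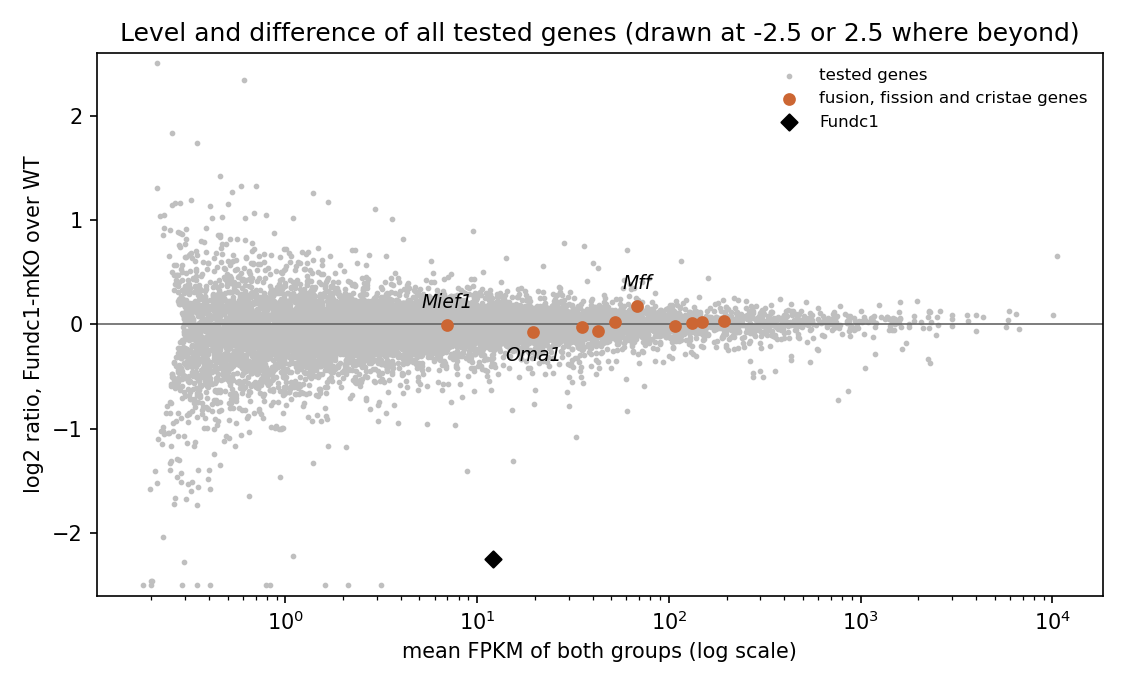
Mean FPKM of both groups (log scale) against the log2 ratio of mKO over WT for all tested genes (grey, with values beyond 2.5 drawn at that limit), the fusion, fission and cristae genes (orange) and Fundc1 (black diamond). The orange points follow the line at 0 from Mief1 at the low end upward, with Mff at 0.18 above it and Oma1 at -0.07 below it.

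The size of change that this comparison called at such levels gives a scale for these values. Of the 5212 tested genes in the same range of mean FPKM, 148 were called by q in the authors' deposited table. The smallest change among them was 1.19-fold. Their median change was 1.30-fold. The bounds of 2 SE for the 9 genes other than Mff reached from 26.1% lower (Oma1) to 28.4% higher (Mief1), wider than the smallest changes that the authors' q called. A q that misses the threshold does not show equal levels. By these bounds a change of that size in a single gene cannot be told from none, although the authors' q called such changes in other genes. The 2 measures differ because the authors' p is smaller than this SE gives under a normal distribution, as described for Mff.

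Where other transcripts share the locus, the level of a gene is less certain, since no source used here says that reads were counted by strand. In mm10, Mff spans chromosome 1 from 82724918 to 82752389 on the plus strand, and its first exons overlap an antisense transcript, C430014B12Rik, over 195 exonic bases. Whether reads from those bases were told apart by strand is not known here. Mfn1 (chromosome 3, 32529482 to 32616544) was given the same locus as Gnb4, a G protein subunit gene on the opposite strand, which has a row of its own with 2.15 FPKM in WT and 2.10 in mKO. In the annotation the genes themselves do not overlap, since Mfn1 ends at 32579239 and Gnb4 starts at 32580332. The annotation places a short coding gene, AC140267.1, inside Mief1 (chromosome 15, 80234080 to 80253371) with 213 shared exonic bases. Immt (chromosome 6, 71831320 to 71875285) shares 185 exonic bases with Gm44771, an unclassified transcript on the minus strand. The joint row of Mtfp1 and Sec14l2 spans chromosome 11 from 4091478 to 4118729. No exonic overlap with another gene was annotated for Mfn1, Mfn2 (chromosome 4, 147873586 to 147904909), Oma1 (chromosome 4, 103313846 to 103366428), Fis1 (chromosome 5, 136953275 to 136966234), Mief2 (chromosome 11, 60728398 to 60732951) or Chchd3 (chromosome 6, 32792227 to 33060152).

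The other genes of the pathway were read against the same shares of all tested rows, 3.17% by q and 13.7% by p under 0.05, at which lists of this size are likely to hold few calls or none. For direction, 42.6% of 12475 tested genes were higher in mKO. Of 18 other fusion and fission names, 11 were tested, 4 at a higher and 7 at a lower level in mKO, and none passed q in the authors' deposited table; their median log2 ratio was -0.0071. Dnm1l, the gene of DRP1 itself, had 25.6 FPKM in WT and 24.2 in mKO with q = 0.820 in the authors' deposited table. Gdap1, which encodes an outer membrane protein that promotes fission and is mutated in a hereditary neuropathy, was the 1 gene of this list with a p under 0.05 before adjustment. It had 3.79 FPKM in WT against 2.996 in mKO, with p = 0.00255 and q = 0.0669 in the authors' deposited table. Mtfr1l, which encodes a relative of the fission regulator MTFR1, was at 84.1 and 83.7 FPKM, the inner membrane protease gene Yme1l1 at 26.2 and 25.5, and the outer membrane carrier-family gene Slc25a46 at 16.2 and 16.3.

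The partners of Immt and Chchd3 gave a similar picture. Of 20 names of the MICOS complex, cristae and inner membrane, 18 were tested, 8 at a higher and 10 at a lower level in mKO, with a median log2 ratio of -0.0079 and no gene past q in the authors' deposited table. Mtx2, which encodes the outer membrane import and MICOS-associated protein metaxin 2, had 25.9 FPKM in WT against 22.3 in mKO. In the authors' deposited table its p before adjustment was 0.0250 and its q was 0.254. It was the 1 gene of the list with a p under 0.05. The MICOS subunit genes are named for their role, after their values were seen. Apoo (MIC26) was at 163 and 178 FPKM, Apool (MIC27) at 41.1 and 39.9, Minos1 (MIC10) at 65.7 and 65.2, 2410015M20Rik (MIC13) at 119.99 and 118, and Chchd6 (MIC25) at 4.73 and 4.51. The most abundant genes of the list were the ATP synthase subunit genes Atp5k, at 5787 and 5951 FPKM, and Usmg5, at 1419 and 1469. Chchd2 and Chchd10, which encode related proteins of the intermembrane space, were at 660 and 671 FPKM and at 468 and 513.

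Genes often used to follow the amount of mitochondria were read in the same way. Of 9 tested, none was called by q, a count near the share of all rows; 7 were at a higher and 2 at a lower level in mKO, with a median log2 ratio of 0.03. None had a p under 0.05 even before adjustment, per the authors' deposited table. The adenine nucleotide carrier gene Slc25a4 had 3594 FPKM in WT against 3676 in mKO, the cytochrome oxidase subunit gene Cox4i1 at 1112 and 1160, the porin gene Vdac1 at 801 and 857, and Sdha of complex II at 328 and 354.

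**Figure D4:**
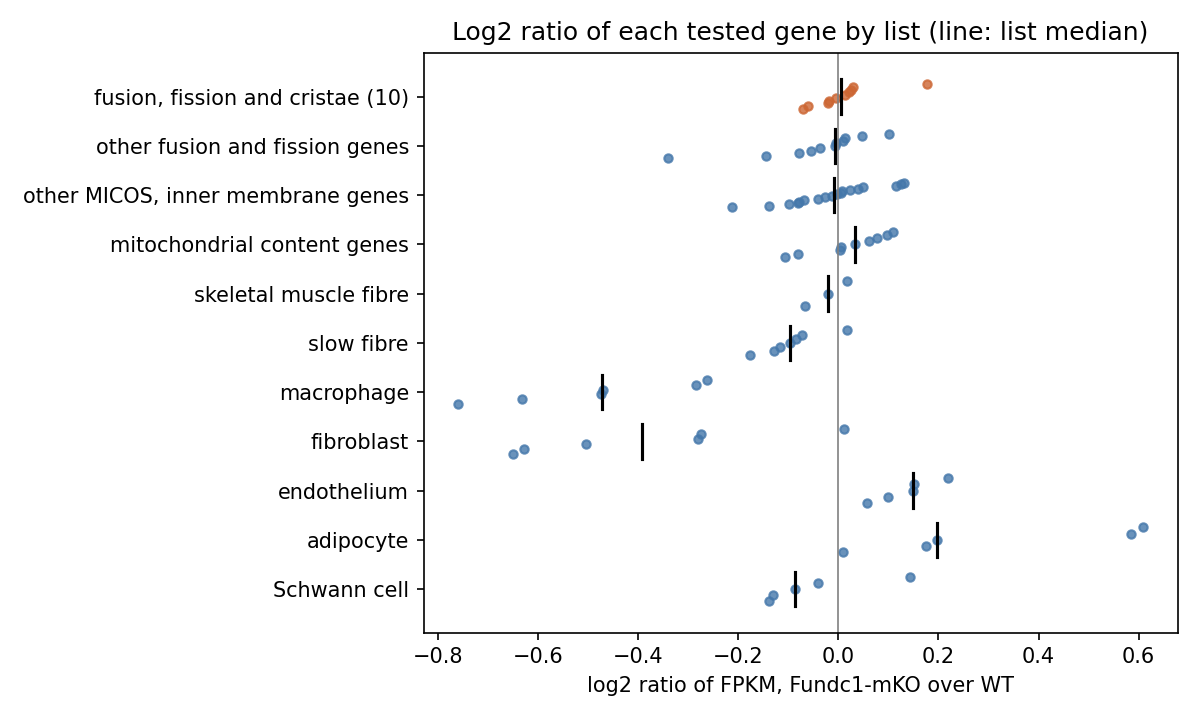
Log2 ratio of FPKM, mKO over WT, of each tested gene by list (1 point per gene, black line at the list median), with the 10 fusion, fission and cristae genes in orange. The mitochondrial lists centre between -0.0079 and 0.03, whereas the macrophage and fibroblast markers centre at -0.47 and -0.39.

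The tissue label was checked against 6 fibre markers, of which Pygm, Casq1 and Myot were between 730 and 2346 FPKM in both groups. Ckm and Acta1 carry the authors' mark for too many fragments and have no usable value, and Des had no row of its own. These markers speak for skeletal muscle and cannot tell gastrocnemius from another muscle. Markers of other cells that passed the authors' q were mainly those of macrophages and fibroblasts. Beside the counts that follow, 3.17% of all tested rows passed q and 13.7% had a p under 0.05. For direction, 42.6% of 12475 tested genes were higher in mKO. All 6 macrophage markers were lower in mKO, 5 of them past q in the authors' deposited table, and their summed level was 200.3 FPKM in WT and 155 in mKO. Of 6 fibroblast markers 5 were lower, 3 past q in the authors' deposited table, with sums of 244 and 217. The 5 endothelial markers were at higher levels (sums of 66.7 and 72.2) with none past q and 1 with a p under 0.05. The 5 adipocyte markers were likewise higher (895 and 1055), with 1 past q in the authors' deposited table. Among them Adipoq was nearly level at 32.1 FPKM in WT and 32.3 in mKO. The intervals of Cfd were very wide, from 0 to 214 in WT and from 1.70 to 277 in mKO. Of 5 Schwann cell markers 4 were at lower levels (90.0 and 82.9) with 0 at a p under 0.05. Slow fibre genes were lower in 6 of 7 cases (3088 and 2906) with none past q and 1 with a p under 0.05. No tested marker of these lists was at 0. By the normal reading of the authors' statistic no marker of any of these lists was called, but it called only 0.198% of all tested rows. The authors' intervals lay apart for 2 macrophage and 2 fibroblast markers, beside 0.715% of all tested rows. In bulk tissue fewer cells of a type and less RNA per cell cannot be told apart, and the part of these shifts in the values of the 10 genes was not tested.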

How the data were processed

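RNA of gastrocnemius from 2 WT and 2 Fundc1-mKO mice was sequenced. TopHat2 2.0.14, Cufflinks 2.2.1 and the build mm10 are named, with no role stated, in the submitters' processing notes; annotation, settings and scaling were not found in any source used here. The authors pooled the libraries of a group into 1 FPKM per gene with an interval, per the file headers. The deposited p-value and q-value and the test statistic, a score, are the authors' own, and their p goes no lower than 5e-05. A linear model over libraries, foreseen for values per library, could not be fitted.

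Members and lists were chosen with earlier results of these data known. Log2 ratios are plain ratios of FPKM. The distance from FPKM to bound was taken as 2 SD to derive the SE, and the log2 ratio over this SE came within 1% of the authors' statistic in 99.9% of 14100 rows. Percentiles use 12490 tested symbols, the row with the highest mean where a symbol recurs. Genes named besides the members were those with p under 0.05 and the up to 4 most abundant of each list, and, outside that rule, 5 MICOS subunit genes chosen after their values were seen. Starts were moved by 1 to count from 1; overlaps come from GENCODE M21, same assembly. The normal reading of the statistic, with Benjamini-Hochberg adjustment, was run on simulated data drawn with the same SE. That checks the computation only, and cannot show whether the authors' statistic follows a normal distribution. Python 3.11.15, numpy 2.4.6, pandas 2.3.3, scipy 1.17.1 and matplotlib 3.10.9 were used.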

Additional observations from a re-analysis of the deposited data

How the results depend on the processing

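No call among the 10 genes appeared when q under 0.1 in the authors' deposited table (4.92% of all tested rows), intervals lying apart (0.715%), or the adjusted normal reading of the authors' statistic (0.198%) replaced q under 0.05. At shares this low, 0 among 10 genes says little. By p under 0.05 before adjustment (authors' deposited table), which 13.7% of rows passed, there was 1 call, Mff. There was 1 each among the other fusion and fission genes (Gdap1) and the MICOS and cristae genes (Mtx2), so these counts do not exceed that share. Scaling to equal medians moved every log2 ratio by 0.03, which put 8 of the 10 genes higher and 2 lower in mKO; equal totals moved them by -0.0028 and changed no sign, and neither did a pseudocount of 1 or 0.1. The median log2 ratio of the 10 genes ranged from 0.0023 to 0.04 over these settings and was 0.01 over the 9 genes with a row of their own, a choice made after seeing the data. The share of rows called was 3.08% among single-gene rows and 2.79% at a mean FPKM of at least 5. No paired analysis was possible because the table holds 1 value per group, and for the same reason no replicate could be left out. Depth is unknown, and the authors' intervals of 15.9% to 18.0% to either side limit what could be seen.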
